A study of Mus musculus with 8 samples.

Results

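The growth hormone, STAT5 and IGF1 axis was followed in mouse liver through 9 genes, taken by their symbols from the known pathway, with earlier results of these data known: Ghr, Jak2, Stat5a, Stat5b, Socs2, Cish, Bcl6, Igf1 and Igfals. All 9 are among the 11784 genes of the deposited table. Livers came from 8 male C57BL/6J mice, 4 on the Control diet (TD.140711) and 4 on the Low AA diet (TD.140712), both defined by their amino acids, the latter with fewer calories from amino acids and more from carbohydrate. The mice began the diets when 9 weeks old, stayed on them for 4 months, and all of them were fasted for about 16 h overnight before the liver was taken, so no fed liver is in the comparison. Poly(A) RNA of each liver was sequenced as 1 library.

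Growth hormone from the pituitary binds its receptor on hepatocytes, the receptor activates the kinase JAK2, and JAK2 phosphorylates STAT5a and STAT5b, which enter the nucleus. STAT5 then switches on Igf1 and Igfals, whose products circulate together, and Socs2 and Cish, whose products damp the receptor. In male rodents the hormone arrives in pulses, STAT5 activity follows them, and STAT5 represses Bcl6, itself a repressor that binds DNA much like that of STAT5. Fasting and a shortage of protein are both known as states in which the liver responds less to the hormone.

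The DNA letters by which STAT5 could act are shown for the 3 members whose RefSeq promoter windows hold them. A window runs from 250 bases before to 50 after an annotated start site (GRCm38.p6), and the letters searched were TTCNNNGAA, which read the same on both strands. They occur in 8.3% of all 32851 windows and in 5 of the 14 windows of the 8 members that have one. The motif is in capitals below. The window of Cish at chr9:107296409-107296708, on the plus strand, holds 2 copies, the first letters lying 0 and 11 bases from the start site, and 0.457% of all windows hold as many or more. An internal start site of Bcl6 at chr16:23981234-23981533, on the minus strand, has 3 copies, beginning at -168, -122 and -88 from that start, a number reached by 0.0335% of windows. The other Bcl6 window, at chr16:23988803-23989102, has 1 copy, at -118, and is not shown. In Igfals at chr17:24877981-24878280, on the plus strand, the copy at -58 reads TTCCTAGAA, the letters of a common form of the BCL6 site, which overlap the STAT5 motif in full and are in 0.186% of windows. Of the other Igfals windows, not shown, that at chr17:24877594-24877893 has 1 copy of the STAT5 motif and that at chr17:24878497-24878796 has 0.
Cish: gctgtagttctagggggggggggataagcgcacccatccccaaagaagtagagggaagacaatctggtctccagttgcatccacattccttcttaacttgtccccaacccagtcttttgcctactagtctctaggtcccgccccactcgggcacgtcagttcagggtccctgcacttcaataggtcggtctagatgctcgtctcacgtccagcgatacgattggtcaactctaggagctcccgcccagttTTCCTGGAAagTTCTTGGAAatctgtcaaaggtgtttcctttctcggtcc
Bcl6: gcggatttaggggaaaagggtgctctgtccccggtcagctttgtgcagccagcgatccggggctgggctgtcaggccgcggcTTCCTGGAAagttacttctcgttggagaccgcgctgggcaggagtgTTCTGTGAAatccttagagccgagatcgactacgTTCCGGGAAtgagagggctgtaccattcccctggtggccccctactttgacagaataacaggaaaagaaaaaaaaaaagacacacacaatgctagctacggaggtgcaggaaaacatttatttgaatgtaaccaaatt
Igfals: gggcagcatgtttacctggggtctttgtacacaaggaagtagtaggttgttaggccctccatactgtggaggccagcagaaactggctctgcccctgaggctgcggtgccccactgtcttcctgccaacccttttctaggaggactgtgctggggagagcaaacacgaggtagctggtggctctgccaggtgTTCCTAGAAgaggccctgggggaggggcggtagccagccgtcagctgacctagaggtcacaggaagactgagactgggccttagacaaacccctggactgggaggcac

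A match of letters describes the window and shows no binding, and Socs2 has no window in the table.

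Values are taken to be read counts that the authors scaled between mice and rounded to whole numbers, with column totals between 27876664 and 30799385. Diets were compared with limma on log2(value + 1), and positive log2 fold changes are higher on the Low AA diet. Hepatocyte markers led in every liver, with the 6 of them summing to between 2305729 and 2748985 per mouse. Sums of Kupffer cell, stellate cell, endothelial, cholangiocyte and blood markers overlapped between the diets. Control mouse F2212 stood apart, with 36587 for the pancreas marker Cela1 against 130 to 288 in the other 7 mice. The other 6 pancreas markers and the 4 skeletal muscle markers were not found among the deposited genes, so Cela1 alone stood for pancreas. In bulk liver, fewer cells of a type and less RNA per cell cannot be told apart. Mice were group housed and the cage of each is not given, so p-values measure the spread between these 8 mice, some of which may have shared a cage.

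None of the 9 axis genes passed an adjusted p under 0.05 in limma, at which 0.399% of all genes were called, and 2 of the 9, Socs2 and Stat5a, both higher on the Low AA diet, had an unadjusted limma p under 0.05, as did 11.8% of all genes. In none of the 9 were the 4 Low AA mice separated from the 4 Control mice, which was the case for 6.81% of all genes. The log2 fold changes of the 9 ran from -0.28 for Ghr to 1.18 for Socs2, with a median of -0.00 against 0.00 over all genes.

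**Figure D1:**
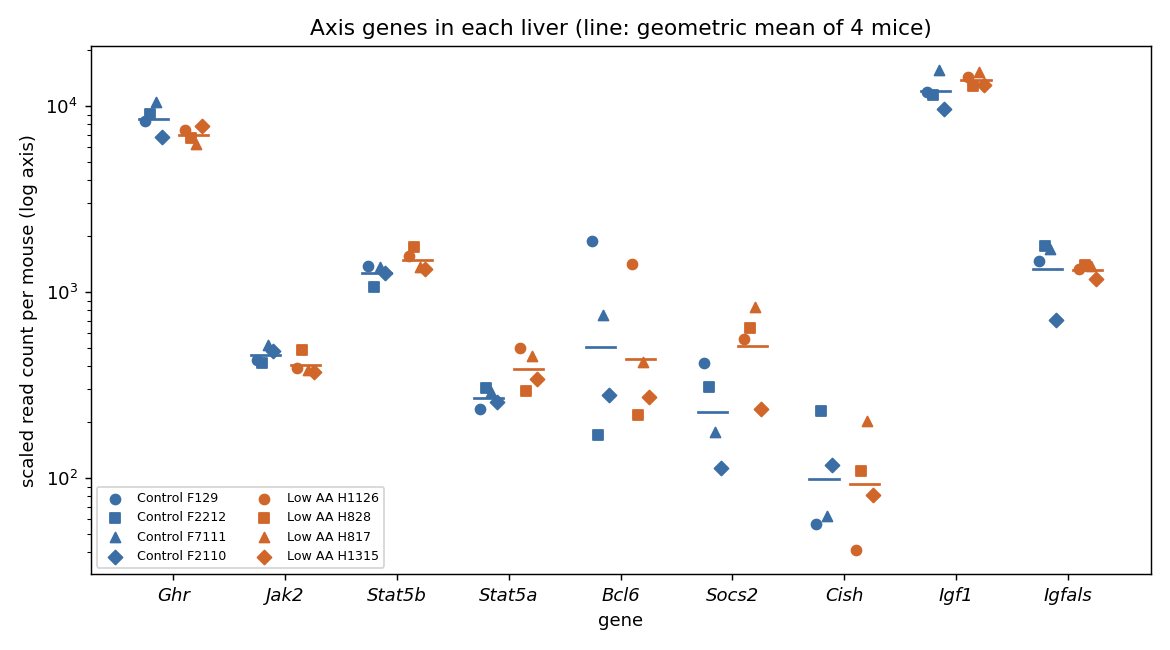
Scaled read counts (log axis) of the 9 axis genes in each of 4 Control (blue) and 4 Low AA (orange) livers, with a line at each group's geometric mean. The diets overlap in every gene, and the points of Bcl6, Socs2 and Cish are spread far more widely than those of Ghr, Jak2, Stat5b and Igf1.

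At the top of the pathway, Ghr (chr15:3317760-3583492, minus strand, GRCm38 as for all positions of genes here) encodes the growth hormone receptor. Its scaled read counts were 8277, 9018, 10469 and 6851 in Control mice F129, F2212, F7111 and F2110, and 7436, 6720, 6266 and 7768 in Low AA mice H1126, H828, H817 and H1315. Of the Control mice, 3 lay above every Low AA mouse, and F2110 lay among these. Group means were 8654 ± 1508 and 7048 ± 680 (SD, n = 4 each), and the log2 fold change was -0.28 (95% interval -0.59 to 0.02, limma adjusted p = 0.457, two-sided exact permutation p = 0.114). Without F2110 the log2 fold change was -0.39 and without F7111 it was -0.19. The deposited value is 1 number per gene, so the full receptor and the shorter secreted binding protein made from the same gene are not separated.

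Jak2 (chr19:29251828-29313080, plus strand), the kinase held by the receptor, differed little between the diets. In the same order of mice it had 429, 418, 522 and 483 on the Control diet and 389, 488, 382 and 374 on the Low AA diet. Of the Low AA mice, 3 were below every Control mouse, while H828 was among the higher of the 8. The log2 fold change was -0.18 (95% interval -0.46 to 0.09, limma adjusted p = 0.633, exact permutation p = 0.2).

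Stat5b (chr11:100780731-100850724, minus strand), the form of STAT5 that carries most of the growth hormone signal in liver, had 1386, 1062, 1363 and 1267 in the Control mice and 1564, 1739, 1367 and 1336 in the Low AA mice. Mice H1126 and H828 exceeded all Control mice, and H817 and H1315 did not. The log2 fold change was 0.24 (95% interval -0.03 to 0.51, limma adjusted p = 0.496, exact permutation p = 0.143). Without Control mouse F2212, the lowest of the 8, it was 0.16.

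The sister gene Stat5a (chr11:100859351-100885169, plus strand), which lies 8626 bases from Stat5b, had 234, 306, 290 and 258 in the Control mice and 500, 293, 453 and 343 in the Low AA mice. Of the Low AA mice, 3 were above all Control mice, and H828 was within the Control range. Means were 272 ± 32.3 on the Control and 397 ± 95.7 on the Low AA diet (SD, n = 4 each), and the log2 fold change was 0.52 (95% interval 0.13 to 0.91, limma unadjusted p = 0.0139, adjusted p = 0.266, exact permutation p = 0.0571). Its fold was 1.43. The summed markers of Kupffer cells, the liver's resident macrophages, went with Stat5a in some mice and not in others. All 6 of 6 are in the table and none is at 0, and they summed to 7988, 10728, 7209 and 7458 in the Control mice and 10766, 7664, 9728 and 10923 in the Low AA mice. H1126, H817 and H1315 were high in both and H828 low in both, and F2212 had the highest of both among Control mice. Against this, F129 had the lowest Stat5a, 234, but a sum above those of F7111 and F2110. F7111 had the lowest sum, with a Stat5a of 290. The sum of F2212 was above that of H817, while its Stat5a, 306, was below. The part of these cells in the Stat5a values was not tested. A shared stretch could move reads between the sister genes, since 6.99% of the words of 100 bases, the length of a read, in the longest coding Stat5a transcript are also in Stat5b. The last 72 bases of the Stat5a gene overlap Stat3 on the other strand.

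**Figure D2:**
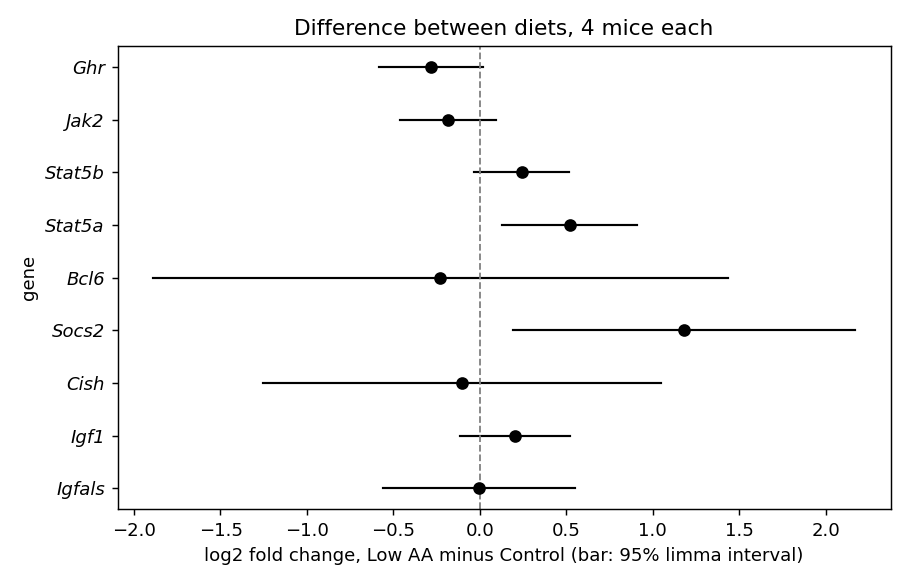
Log2 fold change of each axis gene, Low AA minus Control, with its 95% limma interval from 4 mice per diet. The intervals of Socs2 and Stat5a lie above 0 before adjustment over all genes, those of Bcl6 and Cish span more than 2 units, and the remaining ones include 0.

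Socs2 (chr10:95385362-95417180, minus strand), a suppressor of cytokine signalling that limits the response to growth hormone, had the largest fold difference of the 9. Its values were 417, 308, 178 and 114 in the Control mice and 557, 643, 832 and 234 in the Low AA mice. In the Low AA group 3 mice were above every Control mouse, whereas H1315 fell between F7111 and F2212. The means were 254 ± 135 and 567 ± 250 (SD, n = 4 each), and the log2 fold change was 1.18 with a standard error of 0.45, or 2.27-fold higher with a 95% interval from 1.14 to 4.51. The limma unadjusted p was 0.0239 and the adjusted p 0.324, and the exact permutation test gave p = 0.0857. Without H1315 the log2 fold change was 1.56, without F2110 it was 0.85, and no left-out mouse brought the adjusted p below 0.138. In Socs2, 10.4% of the words of 100 bases are shared with the annotated copy Gm9847.

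Cish (chr9:107296026-107302784, plus strand), the other suppressor switched on by STAT5, had 57, 230, 63 and 118 in the Control mice and 41, 109, 202 and 81 in the Low AA mice. Both diets held low and high mice, and the single highest mouse was F2212. The log2 fold change was -0.10 (95% interval -1.25 to 1.05, limma adjusted p = 0.963, exact permutation p = 0.914), so a difference of 2-fold either way lies inside the interval. Its sign changed without F2212, to 0.30, and without H1126, to 0.28. These are the lowest counts of the 9, and at 41 reads counting error alone would be about 15.6% were these unscaled reads, against a coefficient of variation of 68.5% in Control and 63.2% in Low AA mice.

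Bcl6 (chr16:23965052-23988852, minus strand), the repressor that STAT5 holds down, varied more than any other member. Its values were 1871, 170, 757 and 279 in the Control mice and 1419, 219, 420 and 273 in the Low AA mice. One mouse of each diet, F129 and H1126, was far above the rest, with F7111 next. The log2 fold change was -0.23 (95% interval -1.89 to 1.44, limma adjusted p = 0.942, exact permutation p = 0.8), and it became 0.40 without F129, 0.10 without H828 and -0.80 without H1126. Annotated genes on the other strand overlap Bcl6 (Gm37419), Cish (Gm17040 and Gm17041) and Igf1 (Igf1os), and although the libraries were stranded, the use of strand in counting is not given in the sources used here.

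Igf1 (chr10:87858265-87937042, plus strand), the hormone by which the liver passes the signal to the rest of the body, was among the most abundant messages in these livers, with a mean value above that of 97.7% of genes. It had 11925, 11449, 15620 and 9641 in the Control mice and 14230, 12790, 15308 and 13014 in the Low AA mice. The highest value and the 3 lowest were all in Control mice, with the 4 Low AA mice between. Means were 12159 ± 2508 and 13836 ± 1168 (SD, n = 4 each), and the log2 fold change was 0.20 (95% interval -0.11 to 0.52, limma adjusted p = 0.65, exact permutation p = 0.257). On the fold scale that interval runs from 0.924 to 1.44. The log2 fold change was 0.33 without F7111 and 0.10 without F2110.

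Igfals (chr17:24865997-24882010, plus strand) encodes the acid-labile subunit, which keeps IGF1 and its binding protein in the blood as a ternary complex. Its values were 1460, 1762, 1696 and 708 in the Control mice and 1333, 1404, 1380 and 1181 in the Low AA mice. The 4 Low AA mice lay close together, below 3 Control mice and well above F2110. The log2 fold change was -0.00 (95% interval -0.56 to 0.55, limma adjusted p = 0.996, exact permutation p = 1), and it was -0.31 without F2110 and 0.13 without F2212.

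Levels per kilobase of the longest coding transcript (GENCODE annotation of GRCm38) placed the 9 in order. Ghr, at a mean of 1880 scaled reads per kilobase over the 8 mice, and Igf1, at 1843, were at the top and did not differ beyond their spread. Their order turned with all annotated exons as the length, which gives 867 and 1312, and Socs2 then fell from sixth to below Jak2 and Stat5a, at 43.1 per kilobase. In each mouse Igf1 was above the highest Igfals value of any mouse, 671 per kilobase. Igfals at 520, Stat5b at 266, Bcl6 at 192 and Socs2 at 185 followed, and each neighbouring pair overlapped between mice. Jak2 at 86.6, Stat5a at 86.1 and Cish at 39.5 were lowest, again with overlap between neighbours. Per length, Stat5b exceeded Stat5a between 2.25 and 4.43 times in the 8 mice, with 2.59 to 4.42 in Control and 2.25 to 4.43 in Low AA mice. With all annotated exons as the length the ratio was higher, 4.47 to 7.63 in Control and 3.89 to 7.64 in Low AA mice, overlapping again.

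The members fell into 2 kinds by how far mice of the same diet differed. Bcl6, Cish and Socs2 had within-diet SDs of 1.38, 0.93 and 0.81 on the log2 scale, where the median gene had 0.22, and they ranked at percentiles 99.8, 99.2 and 98.7 of all genes. The highest mouse exceeded the lowest 11-fold for Bcl6, 7.3-fold for Socs2 and 5.61-fold for Cish. Ghr, Jak2, Stat5a, Stat5b and Igf1 had SDs from 0.17 to 0.28, at percentiles 30.4 to 69. With each mouse left out in turn, the percentile of Bcl6 stayed between 99.6 and 99.8, that of Cish between 98.6 and 99.4 and that of Socs2 between 97.3 and 99.2. Igfals, at percentile 90.5, rested on 1 mouse there, and ranked at 16.6 without F2110. The wide ones are the 2 suppressors and the repressor, and the ordinary ones are the receptor, its kinase, the STATs and the hormone. This is a description with no test.

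**Figure D3:**
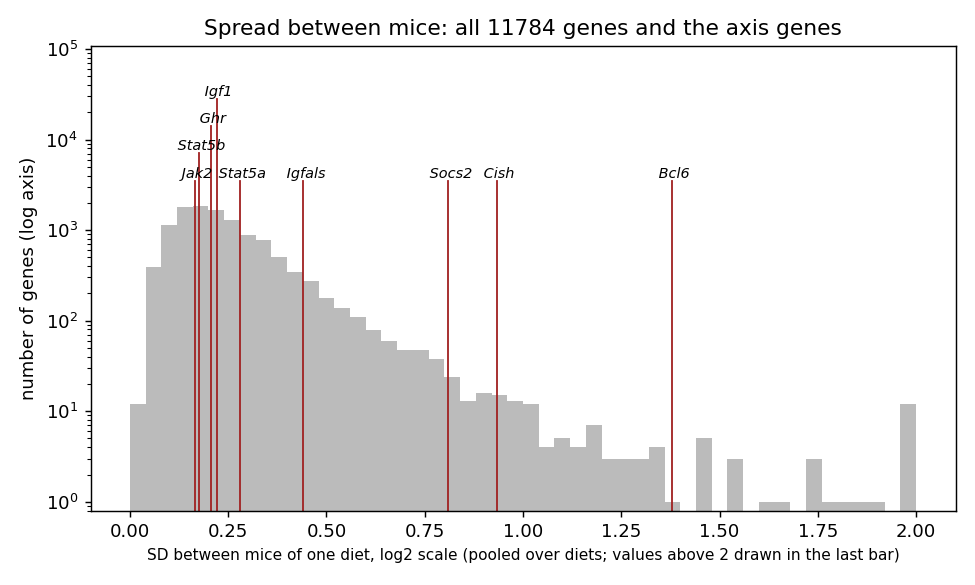
Histogram of the SD between mice of one diet (log2 scale, pooled over diets) for all 11784 genes, counted on a log axis, with red lines at the axis genes. Socs2, Cish and Bcl6 stand in the upper tail, at percentiles 98.7, 99.2 and 99.8, and Ghr, Jak2, Stat5b and Igf1 in the bulk.

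Across the 8 livers Bcl6 and Cish lay at opposite ends in the outermost mice, with a negative r within both diets. The 3 mice with the most Bcl6, namely F129 with 1871, H1126 with 1419 and F7111 with 757, were the 3 with the least Cish, at 57, 41 and 63. Mouse F2212 had the least Bcl6, 170, and the most Cish, 230. The mice between were not in reverse order. H817 had 420 for Bcl6 and 202 for Cish, F2110 had 279 and 118, H1315 273 and 81, and H828 219 and 109. H817 had the most of both genes among these, and among the Low AA mice other than H1126. Pearson's r of the log2 values was -0.78 (exact permutation p = 0.0268) and Spearman's rho -0.76 (exact permutation p = 0.0368). Among the 36 pairs of members this was the only one with an exact permutation p under 0.05 for r, and its adjusted p was 0.784 for r and 0.833 for rho, so it did not pass. Leaving out the 2 mice farthest from the median of Cish gave r = -0.59 over 6 mice, and leaving out those farthest in Bcl6 gave -0.54. The deviations from the diet means gave r = -0.79, with -0.93 in Control and -0.63 in Low AA mice, too few in each diet to test. Other pairs had r between -0.64 and 0.61, Jak2 with Stat5a at the low end and Igf1 with Igfals at the high end, and rho for Igf1 with Igfals was 0.12.

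**Figure D4:**
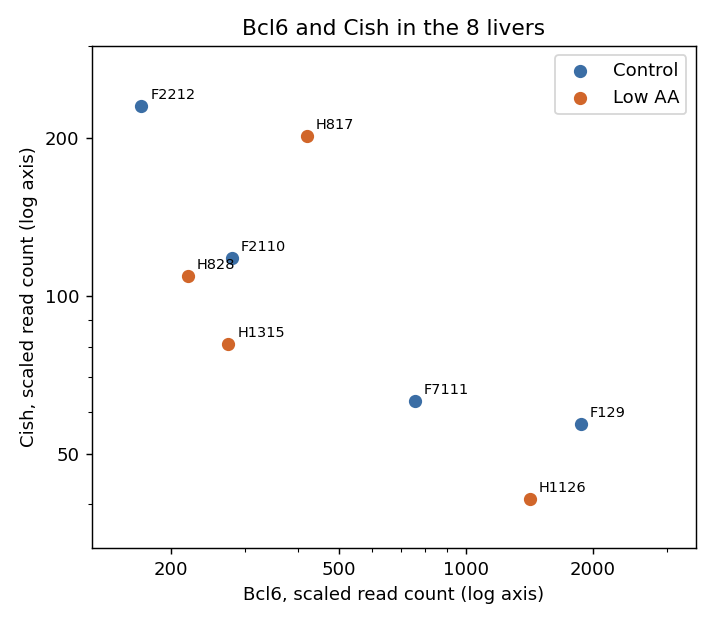
Scaled read counts of Bcl6 (x, log axis) and Cish (y, log axis) in the 4 Control (blue) and 4 Low AA (orange) livers, each labelled with its mouse. F129, H1126 and F7111 lie at the lower right, with 757 to 1871 for Bcl6 and 41 to 63 for Cish, and both diets are found at each end.

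The genes most like Igf1 over the 8 mice, by the Euclidean distance between profiles scaled to unit SD, were Adamtsl4 at 0.587, Naip6 at 0.688 and Dclre1b at 0.756, where the median gene was at 3.76. Those most like Socs2 were Adamts9 at 0.589, Wdr70 at 0.839 and Ncbp2 at 0.883. Adamts9 had 20 to 32 in Control and 27 to 56 in Low AA mice, a low count beside that of Socs2. For the others the nearest were Ldlrad3 to Ghr at 0.702, Cep164 to Jak2 at 0.848, Rrp8 to Stat5a at 0.91, Ept1 to Stat5b at 0.645, Stk39 to Cish at 0.831, Top3b to Bcl6 at 0.805 and Kdm1a to Igfals at 0.654. No axis gene was the nearest to another. Each nearest gene was picked from all others over only 8 mice, so a short distance follows from the picking, and none was tested.

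Genes around the axis were read from lists in the same fit, and beside each count stands the 0.399% of all genes called. The adaptors, phosphatases and suppressors that act on the receptor had 0 of 16 called, a median log2 fold change of 0.03 and 1 unadjusted limma p under 0.05, that of Btrc, part of the ubiquitin ligase that takes the receptor into the cell, at -0.32 (limma adjusted p = 0.33). The remaining Janus kinases and STATs had 0 of 7 called. All 7 log2 fold changes were negative, with a median of -0.21. Tyk2 at -0.44 (limma adjusted p = 0.16) and Stat6 at -0.26 (limma adjusted p = 0.258) had an unadjusted p under 0.05. Tyk2, a Janus kinase of interferon and interleukin receptors, had 557 to 586 in Control and 373 to 516 in Low AA mice, without overlap. The cofactors of STAT5 and BCL6 had 0 of 13 called and 0 unadjusted limma p under 0.05, and the smallest p was that of Cebpa, a hepatocyte transcription factor, at -0.35 (limma adjusted p = 0.521).

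Receptors of the family of the growth hormone receptor had 1 of 12 called. Lepr, the leptin receptor, rose from 2711, 2294, 2081 and 6566 in the Control mice to 9578, 16037, 15963 and 8984 in the Low AA mice, 4.01-fold (95% interval 2.35 to 6.84, limma adjusted p = 0.0414). All Low AA mice were above all Control mice, with F2110 the nearest of these. With single mice removed the adjusted p ran from 0.00441, without F2110, to 0.142, without H817, and the call was lost on removing any of the 7 mice other than F2110. With all 8 mice it was kept in 4 of 9 alternatives and lost among the 8000 genes of highest mean (adjusted p = 0.0586), with equal column totals (0.0508), without a mean-variance trend (0.0715), with robust moderation (0.0664) and with vooma weights (0.0524). The fit without a filter, counted among the 4, only repeats the main fit, since the filter removed no gene. Besides Lepr, 2 genes of this list had an unadjusted limma p under 0.05, the prolactin receptor Prlr with 0.73 (adjusted p = 0.17) and the oncostatin M receptor Osmr with -0.33 (adjusted p = 0.397).

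Partners of IGF1 had 0 of 9 called and a median log2 fold change of -0.10. Igfbp1, the binding protein that rises when insulin is low, had the largest value, 1.27 (limma adjusted p = 0.416). Igfbp2, another binding protein, had 24381 to 33429 in Control and 28771 to 42839 in Low AA mice, which gave 0.38 on the log2 scale (limma adjusted p = 0.369), and Igfbp5 had -0.59 (limma adjusted p = 0.374). Igfbp3, which forms the ternary complex with Igfals, had -0.19 (limma adjusted p = 0.776).

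Sex-biased liver genes, listed from general knowledge as dependent on the pulses of growth hormone, did contain called genes. Their dependence on the hormone was not measured here. Of 21 male-biased genes, 6 were called, all lower on the Low AA diet, and the median log2 fold change was -0.93. These were Mup20, a urinary pheromone carrier, at -2.12, the fatty acid hydroxylases Cyp4a12a and Cyp4a12b at -2.02 and -1.80, the protease inhibitor Serpina1e at -1.54, the glutathione transferase Gstp1 at -1.29 and the complement component C6 at -1.08, with limma adjusted p from 0.00198 to 0.0414. Hsd3b5, Elovl3, Slco1a1 and Nudt7, of the same list, had values from 0.01 to 0.23 without a call. In this list 14 of the 21, all lower, had an unadjusted limma p under 0.05, against 11.8% of all genes. The diets did not overlap in 11 of the 21, against 6.81% of all genes. With a mouse left out, Mup20, Cyp4a12a and Cyp4a12b were called in 8 of 8 fits, Gstp1 in 6, Serpina1e in 4 and C6 in 1. With all mice, C6 alone of these 6 lost its call, among the 8000 genes of highest mean (limma adjusted p = 0.0573) and without a mean-variance trend (0.0715). Mup20, Serpina1e, Gstp1 and the Cyp4a12 genes belong to families of related genes, and reads shared within a family were not examined for them. Of 8 female-biased genes the 1 called, Ntrk2, a neurotrophin receptor at 20 to 61 in Control and 6 to 11 in Low AA mice, was lower, at -2.11 (limma adjusted p = 0.0414), a call kept in 1 of 8 such fits and lost with vooma weights (limma adjusted p = 0.0872), while the other 7 had positive values with a list median of 0.91. Of the 8 female-biased genes, 6 were higher and 1 lower at an unadjusted limma p under 0.05. These 2 lists were written with earlier results of these mice known, so their counts are no independent evidence of a direction.

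**Figure D5:**
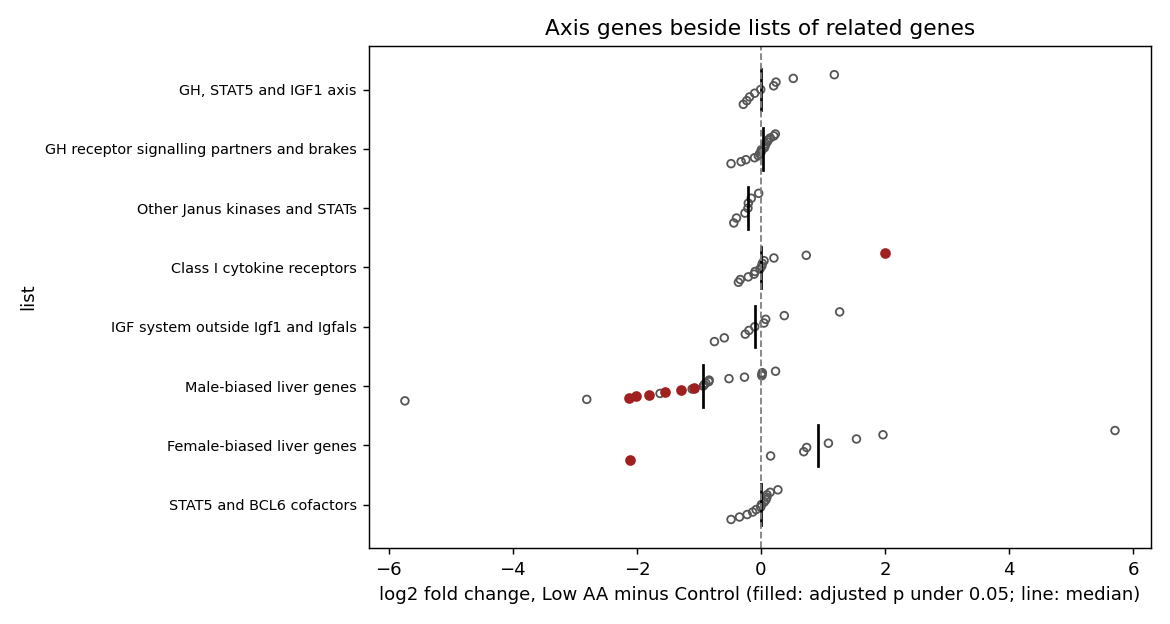
Log2 fold changes, Low AA minus Control, of the axis genes and of 7 lists of related genes, 1 circle per gene, filled where the limma adjusted p was under 0.05, with a line at each median. Axis genes lie around 0 without a filled circle, and filled circles are found among male-biased genes (6, all lower), cytokine receptors (Lepr, higher) and female-biased genes (Ntrk2, lower).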

How the data were processed

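Liver poly(A) RNA from 8 mice, 4 per diet, was analysed, each mouse as 1 replicate. The authors deposited 1 table of a signal per gene and mouse, a read count scaled between mice and rounded. Scaling was inferred from near-equal medians and evenly spaced gaps or doublings among low whole numbers. Its method is not given in the sources used here, so the sequencing depth is unknown. The submitters' processing notes name bcl2fastq 1.8.2, STAR 2.5.0a, RSEM 1.2.6, edgeR 3.10.5, R 3.2.1 and mm10. The remaining 2 columns, a fold change and an FDR from the authors' own comparison, were not used.

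The diets were compared by limma (version 3.58.1, R 4.3.3) after adding 1 and taking log2, letting the prior variance follow the mean. Adjusted p-values are by Benjamini and Hochberg across the 11784 genes, and a gene was called below 0.05. Requiring 1 or more in 4 mice left every gene in. Fold changes on this scale understate those of low genes. The code was tested on simulated data. Single members were also compared by a two-sided exact permutation test, whose smallest p with 4 against 4 is 0.0286. Mouse codes are not shared between diets. Positions, lengths and words are from GENCODE M21 (GRCm38, the same assembly as mm10), and promoters from RefSeq (GRCm38.p6).

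The members and lists were chosen with earlier results of these data known. Named genes were the 9 members, called list members or else the smallest p of a list, and nearest profiles. Stat6, Prlr, Osmr, Igfbp1, Igfbp3, Igfbp5, Hsd3b5, Elovl3, Slco1a1 and Nudt7 were named after their values were seen, and 1 list gene is not reported here by name. Alternatives were a pseudocount of 0.1 or 5, a test of only the 8000 genes of highest mean (without Cish and Ntrk2), no filter, 2 other scalings, 3 other variance models, and each mouse left out. The pairs of members, the spread between mice and the second gene length were added after values had been seen. Figures were drawn with matplotlib 3.10.9.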

Additional observations from a re-analysis of the deposited data

Results flagged for a closer look

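A single distant mouse was looked for in 56 sets of 4 values, 18 of them from axis genes, and 2 were found, where chance gives about 1 in 20. Low AA mouse H828 was above the other Low AA mice for Jak2, at 488 against 374 to 389 (gap over range 0.852). Control mouse F2212 was above the other Control mice for the pancreas marker Cela1 (gap over range 0.945). Without F2212 none of the 9 axis genes was called, the log2 fold change of Stat5b was 0.16 and that of Cish 0.30. The part of either mouse's tissue make-up in the axis values was not tested.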

How the results depend on the processing

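No axis gene was called under any of the 9 alternatives or with any of the 8 mice left out. Under the 9 alternatives each axis gene kept its sign. The alternative without a filter was the main fit again, since the filter removed no gene. With a mouse left out, Cish ran from -0.47 to 0.30, Bcl6 from -0.80 to 0.40 and Igfals from -0.31 to 0.13 in log2 fold change, and the other 6 kept their signs. Over all genes 47 were called, 19 among the 8000 with the highest mean, 30 without a mean-variance trend, and 16 to 77 with a mouse left out (29 without F129, 77 without F2212, 21 without H1126, 19 without H828 and 16 without H817). The related lists held 8 called genes, 5 among the 8000, and 3 to 10 with a mouse left out (4 without each of F129, F7111, H1126 and H828, and 3 without H817). No scaling moved the median log2 fold change of all genes by over 0.1. With 4 mice a diet, the intervals of Bcl6 and Cish include changes beyond 2-fold either way, so differences of that size were not excluded in them. Socs2, at 2.27-fold, and Stat5a, at 1.43-fold, were not called either. No paired analysis was possible because mouse codes are not shared between diets.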
